A study of Ovis aries with 60 samples.

Results

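A CG dinucleotide reads the same on both strands, so each CG site holds a cytosine on the plus strand and a second one, 1 base to the right, on the minus strand. Together they form a dyad. When DNA is copied, the new strand carries no methyl groups. UHRF1 recognises the half-methylated site and DNMT1 methylates the new cytosine, so the level of the plus strand is normally repeated on the minus strand. A dyad methylated on 1 strand only is called hemimethylated. In mature sperm most CG sites are highly methylated.

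Of the CG cytosines that were listed in sperm DNA methylation tables of 3 generations, the sites described here are those with both cytosines listed, the plus-strand cytosine at a position and the minus-strand cytosine at the next. They were chosen by position and not by level. F0 held 2886 such dyads among 313527 listed cytosines, F1 held 2881 among 294661, and F2 held 7314 among 122453. Thus 1.84%, 1.96% and 11.9% of the cytosines listed in these generations belonged to dyads. All other cytosines, 307755, 288899 and 107825 in number, were listed on 1 strand alone. In all, 7613 different dyads were listed in at least 1 generation and 2207 in all 3.

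The animals were male Polypay sheep and their descendants. In F0, 5 rams had encapsulated methionine added to their control feed between weaning and puberty (methionine group). Their 5 twins ate the control feed without it (control group). The labels do not say which rams were twins. Each F0 ram was mated to untreated Polypay ewes, and F1 and F2 animals of both lines were fed control diets. F1 was measured as 5 pools of sperm per line, 1 pool for each F0 ram number, so a pool is a mixture of rams and its level is an average. F2 was measured as 10 single rams per line, 2 for each F0 ram number. The F2 generation came from 1 F1 ram per F0 ram, so these pairs share a sire as well as a grandsire. Tests over F2 rams take them as separate samples unless stated otherwise. All samples were whole-genome bisulfite libraries, in which the methylation level is the share of reads at a cytosine that still show C. Summed coverage of dyad cytosines per sample was 274201 to 757340 in F0, 316382 to 724661 in F1 and 1138957 to 2387511 in F2. A read counts in this sum at each dyad cytosine that it covers. No listed cytosine had fewer than 10 reads in any sample. Beyond these descriptions nothing ties samples to separate collections, and p-values over samples measure the spread between them.

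Dyads lay mostly outside the assembled chromosomes of Oar_rambouillet_v1.0. On unplaced scaffolds, the stretches of the assembly with no chromosome, lay 2401 dyads in F0 (83.2%), 2387 in F1 (82.9%) and 6603 in F2 (90.3%). Of all listed CG cytosines, only 3.16%, 3.46% and 16.8% lay there. A small number of scaffolds held most of them, with 8 of 63 scaffolds enough to hold at least 50% of the scaffold dyads in F0, 8 of 68 in F1 and 16 of 176 in F2. The longest run of dyads with gaps of at most 1000 bases was NW_020998535.1:17514-22292 in F0, with 225 dyads. In F2 it was NW_020998267.1:2825-10404, with 289.

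On the autosomes, F0 had 269 dyads on chromosome 1, 127 on chromosome 15 and 89 elsewhere, F1 had 494 in all and F2 had 711. The X chromosome and the mitochondrial genome held none. They came in blocks too. Of the F0 autosomal dyads, 136 lay at chr1:3016838-3019160, 122 at chr1:128498640-128510800 and 123 at chr15:27753-32933. No annotation of this build was used, so the genes at these positions are not given. The blocks on chromosomes 1 and 15 resembled the scaffolds in level, with means of 35.6%, 32.2% and 36.7% in F0. The block of 10 dyads at chr14:410715-410869 did not, at 75.8% in F0, 79.8% in F1 and 84.5% in F2. Blocks at high level were also found at chr3:132342891-132343098 with 85.02% (and, over 10 dyads of it, 73.0% in F1), at chr4:120998085-120998204 with 76.9% and at chr6:15112311-15115364 with 86.7% in F2.

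The same positions returned across generations. F0 and F1 shared 2335 dyads, 80.9% of the F0 and 81.0% of the F1 dyads. Of the F0 dyads 93% were listed again in F2, where they made up 36.7% of the dyads. Dyad cytosines were read more deeply than the rest in most samples. The median over dyads of the mean coverage per strand was 40 reads for F0, 37.1 reads for F1 and 52.2 reads for F2, compared with 22.8, 23.4 and 24.8 reads for cytosines listed on 1 strand, and it reached 5580 reads at a dyad in F2. The mean coverage per sample was higher at dyads in all 40 samples, but the median was not. In the F0 ram 5T it was 23.5 reads at dyads and 26 at cytosines on 1 strand, and the ratio of the medians was only 1.06 and 1.08 in the F1 pools 23T and 4C. A dyad needs at least 10 reads on both strands in each sample, so its choice depends on coverage and favours deeply read places. In F2, for example, it was 120 ± 26.1 reads at dyads and 27.9 ± 4.62 at other cytosines (mean ± SD, n = 20). The number of genomic copies behind this coverage was not tested.

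Dyads carried intermediate methylation, whereas the cytosines listed on 1 strand carried the high level of sperm. The mean level per sample was 36.1% ± 7.89 at dyad cytosines and 75.0% ± 1.05 at the others in F0 (SD, n = 10). In F1 it was 38.8% ± 4.99 and 74.5% ± 1.22 (SD, n = 10), and in F2 39.9% ± 13.2 and 74.9% ± 1.07 (SD, n = 20). Every sample was lower at dyads. Two-sided paired permutation tests over samples, exact for 10 samples, gave adjusted p = 0.0022 in F0 and in F1 and adjusted p = 3.6e-05 in F2, from the smallest p these tests allow.

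The size of this gap depended on the place. Within the unplaced scaffolds, an alternative chosen after the data were seen, the difference was 4.16 points in F0 (35.2% at dyads and 39.4% at others, lower in 9 of 10 rams) and 3.46 points in F1 (37.8% and 41.3%, lower in all 10 pools). In F2 it was 0.228 points (39.5% and 39.7%, lower in 15 of 20 rams), which did not pass the permutation test (adjusted p = 0.423, n = 20). Within the autosomes the dyads stayed far below the rest, with 40.1% and 75.7% in F0, 43.2% and 75.3% in F1, and 43.3% and 77.6% in F2. Mean dyad level was thus low on the scaffolds and over all autosomal dyads as a mean, though not in each autosomal block, while the scaffold cytosines on 1 strand were nearly as low as the dyads around them.

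Most dyads had a level between the extremes. The median dyad, by its mean over samples, stood at 34.5% in F0, at 37.0% in F1 and at 38.5% in F2. Between 20% and 50% lay 71.8%, 72.4% and 67.5% of dyads. Mean levels of 20% or less were found at 367 F0 dyads (12.7%), 219 F1 dyads (7.60%) and 569 F2 dyads (7.78%). Mean levels of 80% or more were found at 17, 31 and 90 dyads. Of the 17 in F0 all lay on autosomes, as did 30 of the 31 in F1 and 81 of the 90 in F2.

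Some scaffolds stood apart in F2. Levels near 40% were usual, such as 39.7% for the 289 dyads of NW_020998267.1 and 40.2% for the 283 of NW_020998535.1. The 161 dyads of NW_020997993.1 averaged 51.2%, the 91 of NW_020998143.1 averaged 53.1% and the 77 of NW_020997033.1 averaged 52.3%. Of the scaffolds with at least 20 dyads the lowest was NW_020998291.1, whose 52 dyads averaged 10.7%, with ram means between 6.44% and 17.6%. The 42 dyads of NW_020998404.1 averaged 26.4%, the 46 of NW_020998549.1 averaged 28.1% and the 144 of NW_020998439.1 averaged 32.6%. These are means over the same 20 rams, and rams differed widely within most of the scaffolds named. Ram means ran from 7.23% to 78.0% on NW_020998404.1, from 18.2% to 48.1% on NW_020998549.1 and from 40.5% to 74.4% on NW_020997993.1.

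Sample means were spread more widely at dyads than at autosomal cytosines listed on 1 strand. In the F0 methionine group, the mean dyad level was 37.8% in ram 3T, 37.2% in 5T, 27.8% in 9T, 33.2% in 11T and 53.8% in 23T. In the control group it was 35.4% in ram 4C, 34.6% in 6C, 28.9% in 10C, 28.6% in 12C and 43.7% in 24C. The ranges of the groups overlapped, with 23T highest and 9T lowest of all 10. Over the same rams, the level of autosomal cytosines on 1 strand lay between 73.7% and 76.8%.

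In F1, the methionine pools stood at 41.2% for number 3T, 36.3% for 5T, 32.7% for 9T, 37.3% for 11T and 50.6% for 23T. The control pools stood at 36.1% for 4C, 39.4% for 6C, 36.4% for 10C, 36.0% for 12C and 42.5% for 24C. Here too 23T was the highest, 24C the second and 9T the lowest, and the groups overlapped.

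In F2 the methionine line ran from 29.1% to 65.9% with a median of 33.6%, and the control line from 28.9% to 67.2% with a median of 33.1%. Here 4 rams, 2 of each line, stood above the rest: ramF2_480.3T at 65.9%, ramF2_320.5T at 59.6%, ramF2_400.24C at 65.0% and ramF2_409.24C at 67.2%. The remaining 16 reached at most 46.0%, in ramF2_426.11T. These 4 rams belonged to 3 grandsires, and only for 24C were both grandsons among them.

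**Figure D1:**
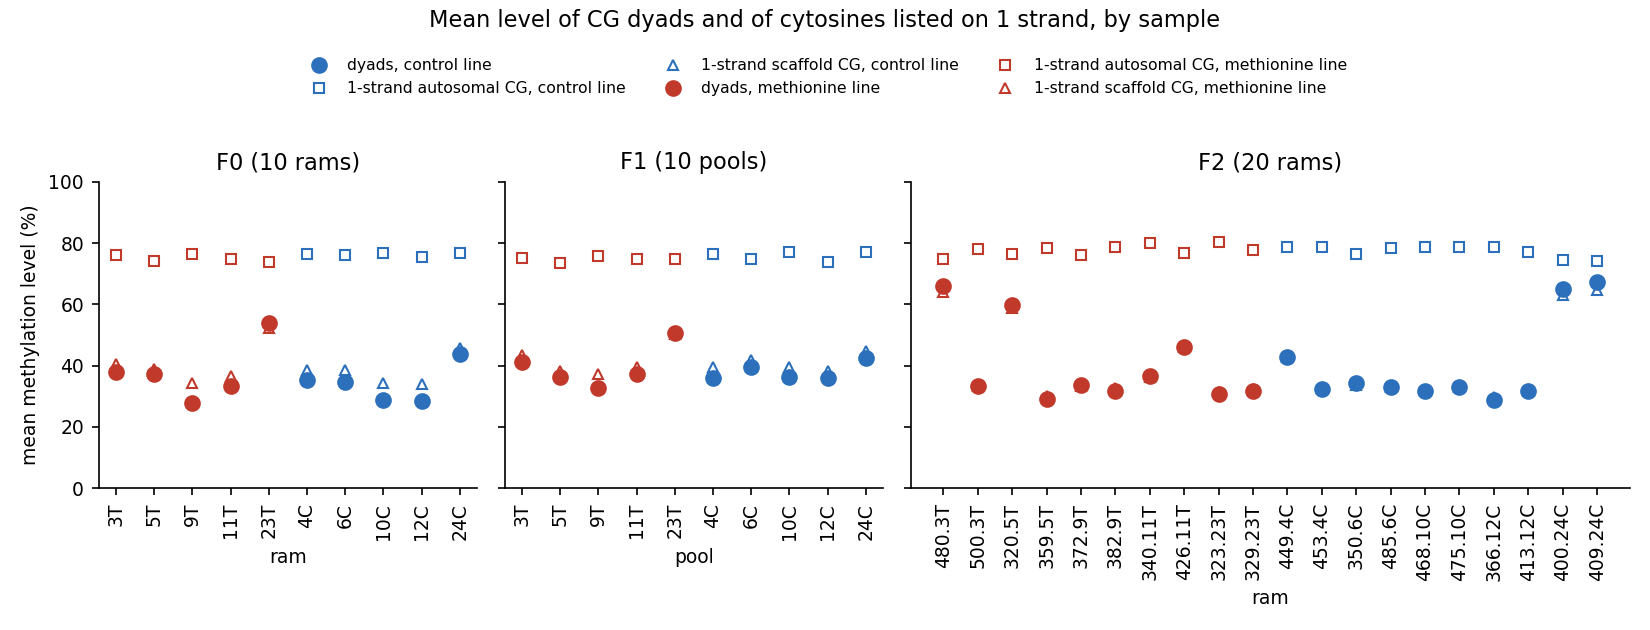
Mean methylation level (%) of CG dyads (filled circles) and of cytosines listed on 1 strand on autosomes (squares) and unplaced scaffolds (triangles) in each of the 10 F0 rams, 10 F1 pools and 20 F2 rams, coloured by line. Dyads lie near 30% to 50% in most samples and at 59.6% or more in 4 F2 rams, scaffold cytosines follow them, and autosomal cytosines stay at 73.5% or more.

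The highest and lowest samples were often the same from place to place. In F0, ram 23T had the highest mean level on all 27 sequences with at least 20 dyads and 9T the lowest on 20 of them. In F1, pool 23T was highest on 26 of 29 sequences and 9T lowest on 26. In F2, the 4 rams with the highest mean were the 4 highest on 67 of 69 sequences, compared with 19 of 27 for the 4 highest rams of F0 and 19 of 29 for the 4 highest pools of F1. A dyad's level thus moved together with that of the other dyads in the same sample. The SD over samples that both strands shared, taken from their covariance, had root mean squares over dyads of 8.81, 5.63 and 14.5 points in the F0, F1 and F2 samples, against SDs of 7.91, 5.01 and 13.3 points for the sample means themselves.

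Cytosines listed on 1 strand on the scaffolds followed the dyads of the same sample. Over the 10 F0 rams, mean dyad level and mean level of 1-strand scaffold cytosines had Pearson's r = 0.994 (permutation p = 1e-05, adjusted 8e-05) and Spearman's rho = 0.988 (permutation p = 2e-05, adjusted 0.00016), and r was 0.981 without the 2 farthest rams. In the F1 pools r was 0.988 (permutation p = 2e-05, adjusted 0.000107) and rho 0.939 (permutation p = 0.00028, adjusted 0.00149), with r = 0.948 without the 2 farthest. For F2 the relation was computed over the 16 rams under 50%, since the other 4 formed a separate cluster. There r was 0.995 (permutation p = 1e-05, adjusted 8e-05) and rho 0.971 (permutation p = 1e-05, adjusted 0.00016), with r = 0.982 without the 2 farthest. The value 1e-05 is the smallest that 100000 resamples can give. Adjustment was over the 16 relations computed.

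Against the autosomal cytosines on 1 strand no relation passed. Pearson's r was -0.485 in F0 (permutation p = 0.153, adjusted 0.271), -0.00389 in F1 (permutation p = 0.993, adjusted 0.993) and -0.279 over the 16 F2 rams (permutation p = 0.297, adjusted 0.402). Spearman's rho was -0.200 (permutation p = 0.587, adjusted 0.631), 0.176 (permutation p = 0.631, adjusted 0.631) and -0.391 (permutation p = 0.136, adjusted 0.217). Without the 2 farthest samples r was -0.325, -0.217 and -0.152. The relation to the coverage of dyads relative to other cytosines did not pass either, with r = -0.323, -0.103 and -0.238 and with adjusted p of Pearson's r between 0.402 and 0.782 and of Spearman's rho between 0.217 and 0.631 in permutation tests. For this relation r was -0.663, 0.574 and -0.419 without the 2 farthest samples, so its sign turned in F1.

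The measured level outside CG, at CHG sites on scaffolds, rose with dyad level in F0 (r = 0.752, permutation p = 0.00919, adjusted 0.021, and rho = 0.733, permutation p = 0.0201, adjusted 0.0459). In F2 over the 16 rams the adjusted p of r missed 0.05 and that of rho passed (r = 0.539, permutation p = 0.0252, adjusted 0.0504, and rho = 0.6, permutation p = 0.0157, adjusted 0.0419). In F1 it did not pass (r = 0.383, permutation p = 0.265, adjusted 0.402, and rho = 0.212, permutation p = 0.564, adjusted 0.631). Without the 2 farthest samples r was 0.581, 0.252 and 0.110 in the order F0, F2 and F1, so the F2 value rested on those rams. CHG levels were small throughout, between 0.310% and 0.532% over samples on scaffolds. The part of incomplete bisulfite conversion in this relation was not tested.

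Semen can hold cells other than sperm, and the 20 F2 rams also had sperm RNA counts. Before RNA extraction the cells were treated with a buffer that lyses somatic cells, a step not described for the DNA, so the RNA cannot show which other cells the bisulfite libraries held. The summed level of 10 leukocyte genes was 13626, 10148, 13582 and 13242 CPM (a gene's counts scaled to a common library total) in ramF2_409.24C, ramF2_480.3T, ramF2_400.24C and ramF2_320.5T, and between 149 and 20842 in the other 16, with a median of 9584. The 4 rams took ranks 3, 11, 4 and 6 of 20. Most of the sum in each of the 4 rams came from S100A8 and S100A9, at 3894 and 8722 CPM in ramF2_400.24C. The sum and its ranks thus mainly follow these genes and do not measure the number of leukocytes. Other genes of the list stood lower in that ram than in any of the 20, with 7.18 CPM for CSF3R, 2.89 for LCP1, 2.56 for SPI1, 1.57 for ITGB2, 1.40 for TYROBP and 0.248 for CD14. The list's remaining genes were not at their lowest there, with 36.9 CPM for PTPRC and with 914 CPM for CD68, which only 1 other ram exceeded, so members of the list ranked this ram differently. Summed levels of 8 epithelial genes took ranks 3, 5, 4 and 8. Here most of the sum in each of the 4 rams was the keratin KRT4, with 6735, 3853, 4373 and 2844 CPM in the same order, whereas KRT5 was at 0.165 CPM in ramF2_400.24C, its lowest value of the 20 rams. The summed levels of 9 late germ cell genes, such as the protamine PRM1 and the transition protein TNP1, took ranks 11, 16, 12 and 15. Of the genes of the 3 lists that the count table holds, 0 were at 0 in any of the 4 rams. The part of other cells in the dyad level was not tested.

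The F0 rams and the F1 pools of the same number had related mean levels. Over the 2207 dyads listed in all generations, the mean level of the F0 ram and that of its pool had r = 0.931 (permutation p = 0.00034, adjusted 0.00136) and rho = 0.818 (permutation p = 0.00604, adjusted 0.0193) over the 10 numbers. Without 23T and 24C, the 2 farthest, r was 0.672. F0 and F1 differ in more than generation, since a pool averages several rams. Levels did not stay alike into F2 for each number. For number 23 the mean was 54.8% in the F0 ram and 50.2% in the F1 pool, but 29.8% and 31.0% in the F2 rams, and the deviations of single dyads in F2 and F0 had r = -0.563 at this number, the lowest of the 10. The highest such r was 0.650, at number 24, and the median over the 10 numbers was 0.141.

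The classes of dyads followed the mean level. A dyad was counted as unmethylated in a sample when both strands were at 20% or less, as methylated when both were at 80% or more, as hemimethylated when 1 strand was at 80% or more and the other at 20% or less, and as other when none of these held. In F0, 12.7% ± 11.1 of dyads were unmethylated in the methionine group and 18.2% ± 10.7 in the control group (SD, n = 5). The lowest was 1.77% in ram 23T and the highest 30.7% in 9T, both of the methionine group. In F1 these shares were 7.84% ± 6.55 and 8.66% ± 4.77 (SD, n = 5), and in F2 16.02% ± 10.6 and 16.4% ± 10.0 (SD, n = 10). In F2 the 4 high rams had 1.16% to 1.76%, as did ramF2_426.11T with 1.65%, ramF2_449.4C had 4.02%, and all others had between 17.3% and 28.7%.

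Methylated dyads were rare. They made up 0.942% ± 0.404 and 0.880% ± 0.405 of dyads in the methionine and control groups of F0, and 1.07% ± 0.335 and 1.12% ± 0.393 in those of F1 (SD, n = 5). In F2 they made up 1.91% ± 1.78 and 2.55% ± 3.06 (SD, n = 10), with 9.80% in ramF2_409.24C, 6.70% in ramF2_480.3T, 6.48% in ramF2_400.24C and at most 2.87% in any other ram. Hence the class of other dyads was the largest in every sample, from 67.8% in the F0 ram 9T upwards.

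**Figure D2:**
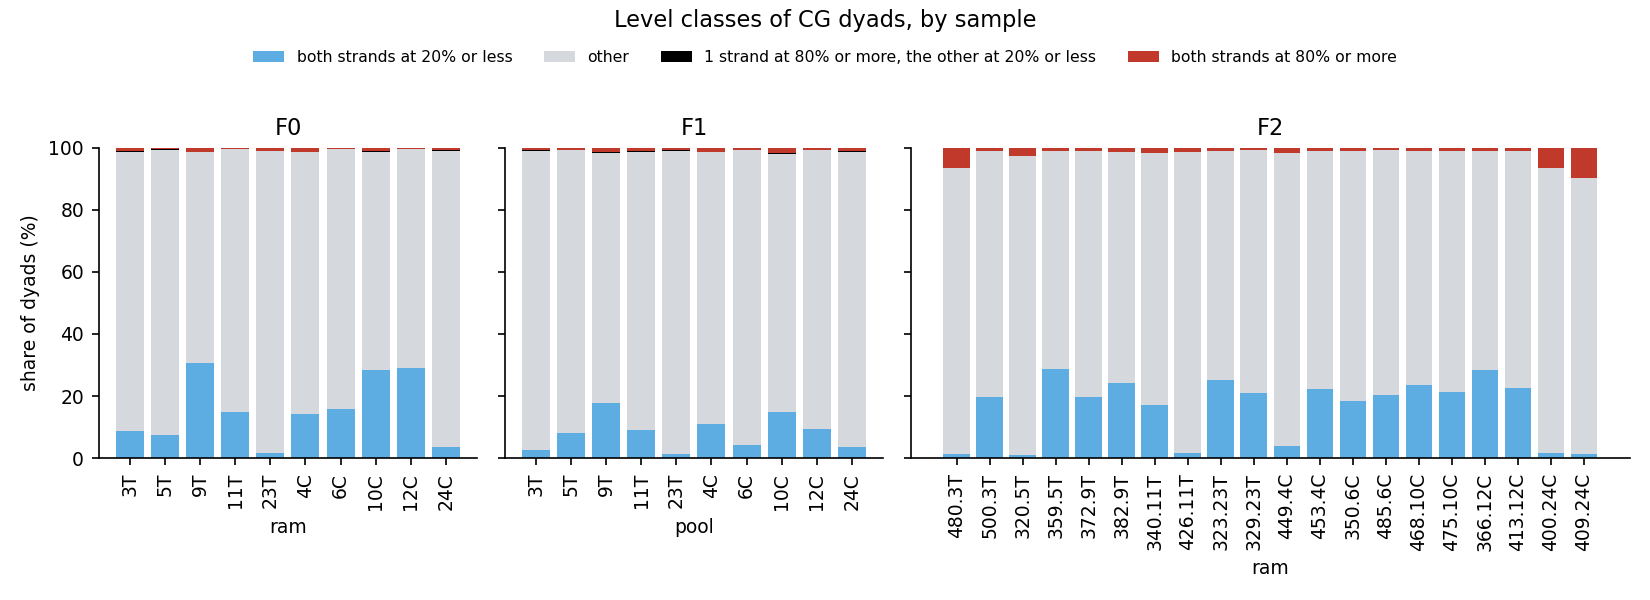
Share of CG dyads (%) in each of 4 level classes, stacked to 100%, in each F0 ram, F1 pool and F2 ram. Grey dyads, with at least 1 strand between the limits of 20% and 80%, fill most of each bar, the unmethylated class reaches 30.7%, and the hemimethylated class is too thin to be seen in F2.

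By its mean level over all samples of the generation, a dyad could be placed in 1 class and still change. The level class of the dyad, from reads of both strands together, differed between samples of a generation at 1448 dyads in F0 (50.2%), 1095 in F1 (38.0%) and 5111 in F2 (69.9%). At 5, 2 and 388 of them a dyad was at 20% or less in one sample and at 80% or more in another. At 1375, 1733 and 2126 dyads every sample stayed between the limits. F2 had more samples, F1 pools average several rams, and counting error near a limit also changes a class. These shares are therefore not compared between generations.

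The strands of a dyad agreed closely. Over dyads, the mean plus-strand level and the mean minus-strand level had r = 0.913 in F0, 0.877 in F1 and 0.964 in F2, given as a description since dyads of 1 scaffold share their reads and samples. The strands of the median dyad stood 2.78 points apart in F0, 2.85 points in F1 and 1.95 points in F2. Of all dyads, 75.8%, 73.9% and 87.5% had strands within 5 points, and 95.7%, 94.3% and 97.6% within 10 points. The mean of plus minus minus level was near 0, at -0.134, -0.119 and -0.00961 points. Single samples, with fewer reads, differed more, with a median size between 4.56 and 9.40 points.

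The strands also moved together from sample to sample. The median over dyads of the correlation between plus-strand and minus-strand levels across samples, a description, was 0.602 in F0, 0.391 in F1 and 0.823 in F2, in the same order as the spread of the sample means. The correlation was above 0 at 90.7% of F0, 81.8% of F1 and 99.4% of F2 dyads.

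**Figure D3:**
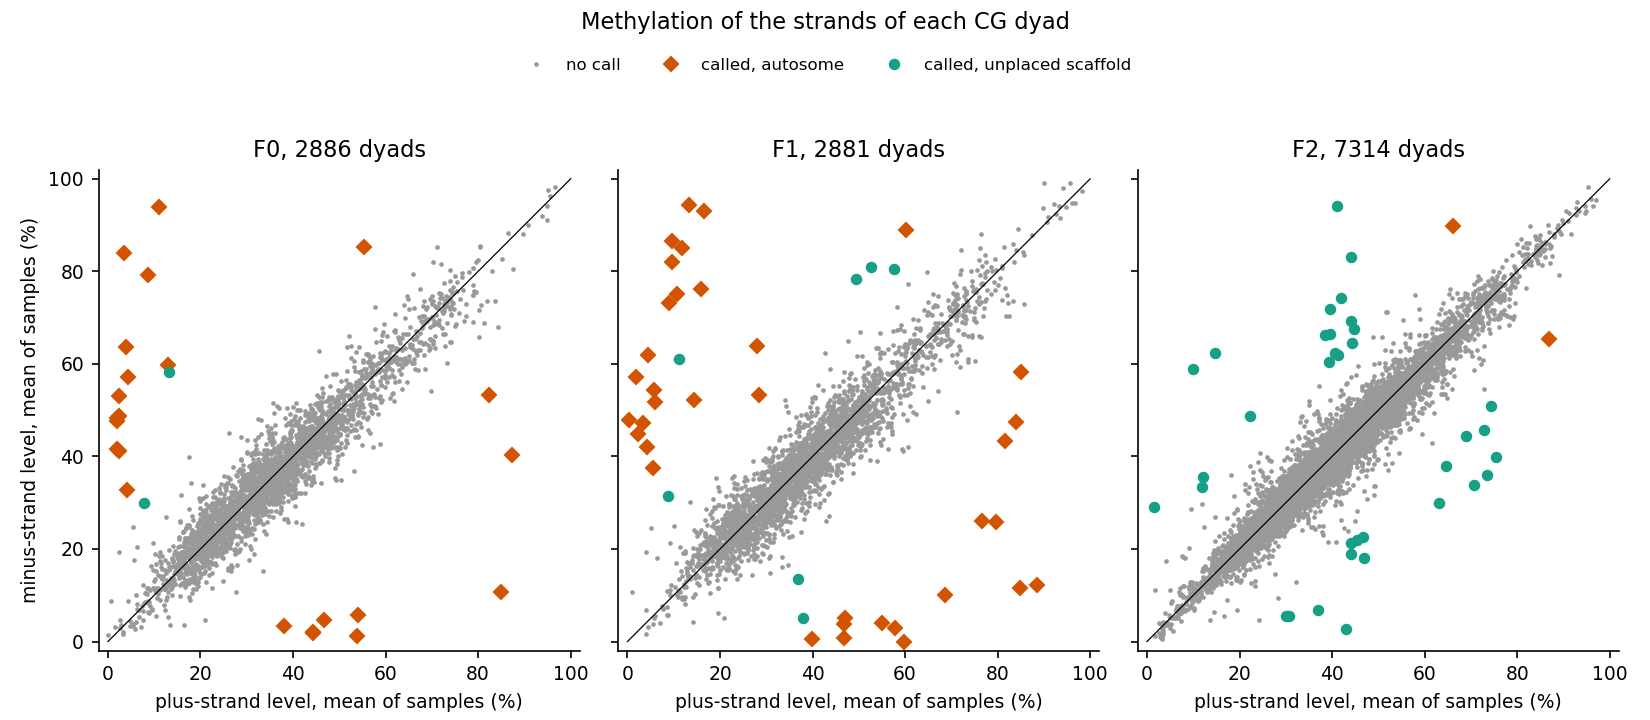
Plus-strand level (horizontal, %) against minus-strand level (vertical, %) of every CG dyad, each averaged over the samples of its generation, with the line of equality. Most dyads (grey) lie within 10 points of the line, and those with a called strand difference lie away from it, 23 of 25 on autosomes (orange) in F0, 36 of 43 in F1 and 2 of 37 in F2.

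The strand partner was much closer in level than the nearest neighbour on the same strand. For each dyad with another listed plus-strand CG cytosine within 50 bases, the difference from the partner and that from the neighbour were compared after the variance from read counting was subtracted. In F0 the root mean squared difference was 5.05 ± 1.44 points from the partner and 14.2 ± 2.94 points from the neighbour (SD, n = 10, 2704 dyads). In F1 it was 5.90 ± 1.20 and 14.2 ± 2.07 (SD, n = 10, 2702 dyads), and in F2 3.99 ± 1.15 and 15.7 ± 3.17 (SD, n = 20, 7078 dyads). Ram 23T of F0 was the exception, with 7.89 and 7.66 points, and the partner was closer in the other 39 samples. Two-sided paired permutation tests gave p = 0.00391 in F0 and p = 0.00195 in F1, both exact, and p = 1e-05 in F2.

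**Figure D4:**
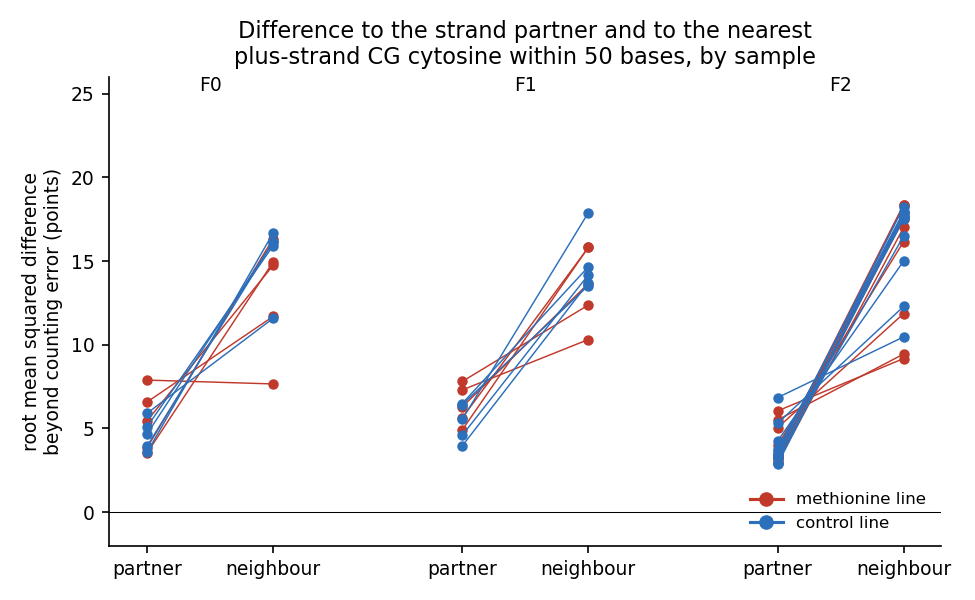
Root mean squared difference in level (points, counting variance subtracted) between the plus-strand cytosine of a dyad and its strand partner or its nearest listed plus-strand CG neighbour within 50 bases, with a line for each sample. The partner value is the lower in 39 of 40 samples, and only the line of F0 ram 23T, from 7.89 to 7.66 points, runs nearly flat.

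Rams with higher dyad level had larger strand differences in F0. The root mean squared strand difference beyond counting, over all dyads, had r = 0.919 with mean dyad level (permutation p = 0.00063, adjusted 0.00202) and rho = 0.855 (permutation p = 0.00286, adjusted 0.0114), and r was 0.764 without the 2 farthest rams. In F1 r was 0.240 (permutation p = 0.499, adjusted 0.571) and rho 0.176 (permutation p = 0.63, adjusted 0.631), with r = 0.271 without the 2 farthest. Over the 16 F2 rams r was 0.775 (permutation p = 0.00207, adjusted 0.00552) and rho 0.503 (permutation p = 0.0495, adjusted 0.099), and with r = 0.175 without the 2 farthest the relation rested on these rams. The largest F0 values, 8.88 points in 23T and 7.32 in 5T, came with summed dyad coverage of 371786 and 274201. Ram 6C had 5.83 points at 332070, and the most deeply read ram, 12C, had 5.12 at 757340. The part of depth was not tested.

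Dyads of the hemimethylated class were few, and in F0 and F1 most of them lay on autosomes. The strands of a dyad are read from different DNA molecules, so this class rests on the mean level of each strand. It does not count molecules methylated on 1 strand where the strands have like mean levels, so the shares are not rates per molecule. Of 28860 pairs of dyad and ram in F0, 31 were hemimethylated (0.107%). In F1 it was 64 of 28810 (0.222%), and in F2 9 of 146280 (0.00615%). The 31 in F0 came from 6 dyads, all autosomal, and 1 dyad was hemimethylated in all 10 rams. The 64 in F1 came from 14 dyads, 13 of them autosomal, with at most 9 of 10 pools at a dyad. The 9 in F2 came from 6 scaffold dyads, 5 of which were hemimethylated in a single ram.

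A stable difference between strands was tested at each dyad with limma on plus minus minus level, with an intercept alone and all samples of a generation. Calls needed a mean difference of 20 points or more and a Benjamini-Hochberg adjusted p of 0.05 or less. In F0, 25 of 2886 dyads were called (0.866%), 9 with the plus strand higher (0.312%) and 16 with the minus strand higher (0.554%). In F1, 43 of 2881 were called (1.49%), 17 plus (0.59%) and 26 minus (0.902%). In F2, 37 of 7314 were called (0.506%), 18 plus (0.246%) and 19 minus (0.26%). Autosomes held 23 of the called dyads in F0 and 36 in F1, although most dyads tested lay on scaffolds. In F2 autosomes held 2 of the called dyads and scaffolds 35. By size alone, a mean difference of 20 points or more was found at 4.74% of autosomal and 0.125% of scaffold dyads in F0. In F1 these shares were 7.49% and 0.293%. In F2 the autosomal share was the lower, with 0.281% and 0.530%. The counts of called dyads depended on the limits chosen. With a coverage of at least 20 reads on both strands in each sample, 4, 7 and 15 dyads were called. That limit also left fewer dyads to test, so the lower counts need not mean that calls failed. With a size of 10 points 54, 88 and 172 were called.

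The same strand was the higher in every sample at 25 of 25 called dyads in F0, 41 of 43 in F1 and 31 of 37 in F2. By adjusted p alone, without the size, 56 dyads in F0 (1.94%), 94 in F1 (3.26%) and 496 in F2 (6.78%) passed. Calls at dyads listed in both generations mostly returned in the later one. Of the dyads listed in both F0 and F1, 21 were called in F0 and 22 in F1, and 21 were called in both, all with the same strand higher. That is 100% of these 21 F0 calls and 95.5% of these 22 F1 calls. The other calls, of 25 in F0 and 43 in F1, lay at dyads not listed in both and could not be compared. On the same basis F0 and F2 shared 4 calls, 100% of 4 and 50% of 8. F1 and F2 shared 7, 77.8% of 9 and 63.6% of 11. The direction was the same in each.

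In all 3 generations 4 dyads were called. Of the called dyads, 4 in F0, 5 in F1 and 8 in F2 were listed in every generation, so 4 was the most possible. At chr4:120998096-120998097, in the block of high methylation, the plus strand was at 82.3% ± 6.60 and the minus strand at 53.2% ± 9.07 in F0 (SD, n = 10). The plus strand ran from 73.1% to 93.1% with a median of 81.9%, and the minus strand from 35.3% to 65.2% with a median of 55.0%, so the strands did not overlap. In F1 the strands were at 84.98% ± 5.998 and 58.3% ± 6.66 (SD, n = 10), and in F2 at 86.8% ± 2.87 and 65.3% ± 4.45 (SD, n = 20). The difference was 29.1 points in F0 (SE 2.76, limma adjusted p = 8.55e-06), 26.7 in F1 (SE 2.83, limma adjusted p = 2.16e-05) and 21.5 in F2 (SE 1.11, limma adjusted p = 1.15e-12). Between 51 and 448 reads lay behind each F0 and F1 level, and between 297 and 1042 behind each F2 level.

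The other 3 had the minus strand higher. At NW_020998535.1:19295-19296 the strands were at 13.2% ± 4.95 and 58.3% ± 12.6 in F0, and at 11.2% ± 3.78 and 61.1% ± 8.60 in F1 (SD, n = 10). In F2 they were at 14.6% ± 4.49 and 62.4% ± 12.5 (SD, n = 20). The F0 plus strand ran from 8.97% to 23.3% with a median of 10.7%, and the F0 minus strand from 40% to 77.4% with a median of 57.6%. The highest plus-strand level in any generation, 25.5%, was thus below the lowest minus-strand level, 40%. The difference was -45.0 points in F0 (SE 3.88, limma adjusted p = 3.15e-06), with 14 to 132 reads behind a level.

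At chr14:410857-410858 the strands were at 55.3% ± 6.57 and 85.3% ± 7.56 in F0, at 60.2% ± 5.64 and 88.9% ± 3.30 in F1 (SD, n = 10), and at 66.2% ± 4.19 and 89.7% ± 2.55 in F2 (SD, n = 20). The F0 plus strand ran from 45.3% to 65.5% with a median of 54.7%, and the F0 minus strand from 74.6% to 92.5% with a median of 87.9%. These strands did not overlap in any generation, and 148 to 2544 reads lay behind a level. The difference was -29.9 points in F0 (SE 2.20, limma adjusted p = 5.87e-07).

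At NW_020998535.1:17905-17906, in the same scaffold run, the strands were at 7.70% ± 3.70 and 29.9% ± 14.1 in F0 (SD, n = 10) and at 11.8% ± 7.51 and 33.3% ± 20.4 in F2 (SD, n = 20). Here the strands overlapped. The F0 plus strand ran from 2.22% to 15.8%, and the F0 minus strand from 13.7% to 60.9% with the highest value in ram 23T. Its difference of -22.2 points (SE 3.75, limma adjusted p = 0.00393) was the smallest called in F0, and without ram 23T or without ram 24C it fell below 20 points, at -19.6 and -19.8. In F2 the difference was -21.6 points, and without the 4 rams over 50%, an alternative chosen after seeing the data, it was -15.5 points and thus under the size needed for a call.

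The widest differences in each direction lay on autosomes in F0 and F1. Of dyads with the minus strand higher, the widest in F0 was chr2:117047629-117047630, where the plus strand ran from 4% to 18.8% with a median of 11.3%, and the minus strand from 84.8% to 100% with a median of 94.5%. The difference was -82.7 points (SE 2.38, limma adjusted p = 2.58e-11), and in F1 the same dyad stood at 16.5% ± 7.54 and 93.04% ± 3.40 (SD, n = 10). Of dyads with the plus strand higher, the widest in F0 was chr6:93565525-93565526, where the plus strand ran from 66.7% to 95.8% with a median of 87.6%, and the minus strand from 0% to 25% with a median of 12.1%, a difference of 74.2 points (SE 4.10, limma adjusted p = 3.31e-08). Coverage was modest at both, with 13 to 44 and 10 to 28 reads behind a level, so that 1 read of 10 changes a level by 10 points. In all rams the strands stood on opposite sides of 50%.

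In F1 the widest with the plus strand higher was chr26:24231182-24231183, at 88.4% ± 8.90 on the plus and 12.3% ± 8.33 on the minus strand, and the widest with the minus strand higher was chr5:103641975-103641976, at 13.2% ± 6.36 and 94.3% ± 5.58 (SD, n = 10). The first ran from 71.4% to 100% on the plus strand and from 0% to 22.7% on the minus strand. The second ran from 5% to 25% and from 84.6% to 100%. Neither dyad was listed in F0 or F2.

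In F2 the widest in each direction lay on scaffolds and differed in kind. Those named here are the widest with the plus strand higher and the widest with the minus strand higher. At NW_020997174.1:9060-9061 the minus strand was nearly free of methylation, at 2.64% ± 3.66, while the plus strand was at 43.0% ± 14.7 (SD, n = 20). At NW_020998323.1:23803-23804 the minus strand was nearly full, at 94.1% ± 2.88, while the plus strand was at 41.0% ± 16.8 (SD, n = 20). In both, the plus strand was near the usual level of dyads and as variable, from 23.5% to 76.0% and from 20.7% to 76.6%, while the minus strand stayed within 0% to 12.3% and 86.8% to 100%. The differences were 40.3 points (SE 3.25, limma adjusted p = 4.65e-09) and -53.1 points (SE 3.19, limma adjusted p = 1.96e-11).

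Around the threshold of 20 points, the nearest dyads inside it had differences of -22.2 points in F0 and -22.7 in F1, both at NW_020998535.1:17905-17906, and of -20.3 in F2 at NW_020996964.1:1847-1848. The nearest outside had -19.3 points in F0 at chr1:3018333-3018334, -19.6 in F1 at chr4:18115791-18115792 and -19.8 in F2 at NW_020996977.1:10916-10917.

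Called dyads within 2000 bases of each other formed 13 loci in F0, 23 in F1 and 27 in F2. At 3 loci in F0 and 6 in F1, called dyads of both directions stood together, and at all of these the dyads with the plus strand higher lay to the left of those with the minus strand higher. In F2, 2 loci held both directions, and neither had this order. These loci were examined further after their values had been seen, so what follows is a description. At chr3:58987693-58988540, 3 dyads with a higher plus strand were spaced 77 and 14 bases apart and 3 with a higher minus strand 14 and 77 bases apart. At chr23:32018527-32019684 the spacing was 57 bases on either side. At chr1:145649485-145650044 and chr4:18115426-18115901, called in F1, it was 17 bases on either side. Dyads paired from the outside in had the same midpoint at each of these 4 loci, to the base.

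The levels of the higher strands were close on either side at some of these loci. On chromosome 3 in F0, the outer pair had 44.3% ± 8.52 on the left plus strand and 41.5% ± 6.94 on the right minus strand (SD, n = 10). The opposite strands were at 2.17% ± 3.18 and 2.001% ± 2.69. On chromosome 23 in F0, the outer pair had 54.0% ± 11.6 and 57.1% ± 9.71, with opposite strands at 5.71% ± 4.53 and 4.34% ± 4.31. On chromosome 1 in F1, the outer pair had 81.6% ± 9.48 on the left plus and 81.9% ± 5.45 on the right minus strand, but the opposite strands differed, at 43.4% ± 11.9 and 9.71% ± 7.43. On chromosome 4 the outer pair had 79.6% ± 6.48 and 63.9% ± 9.11, and the inner pair 76.7% ± 9.09 and 52.1% ± 14.3 (SD, n = 10). What the DNA between the mirrored dyads holds was not analysed here.

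**Figure D5:**
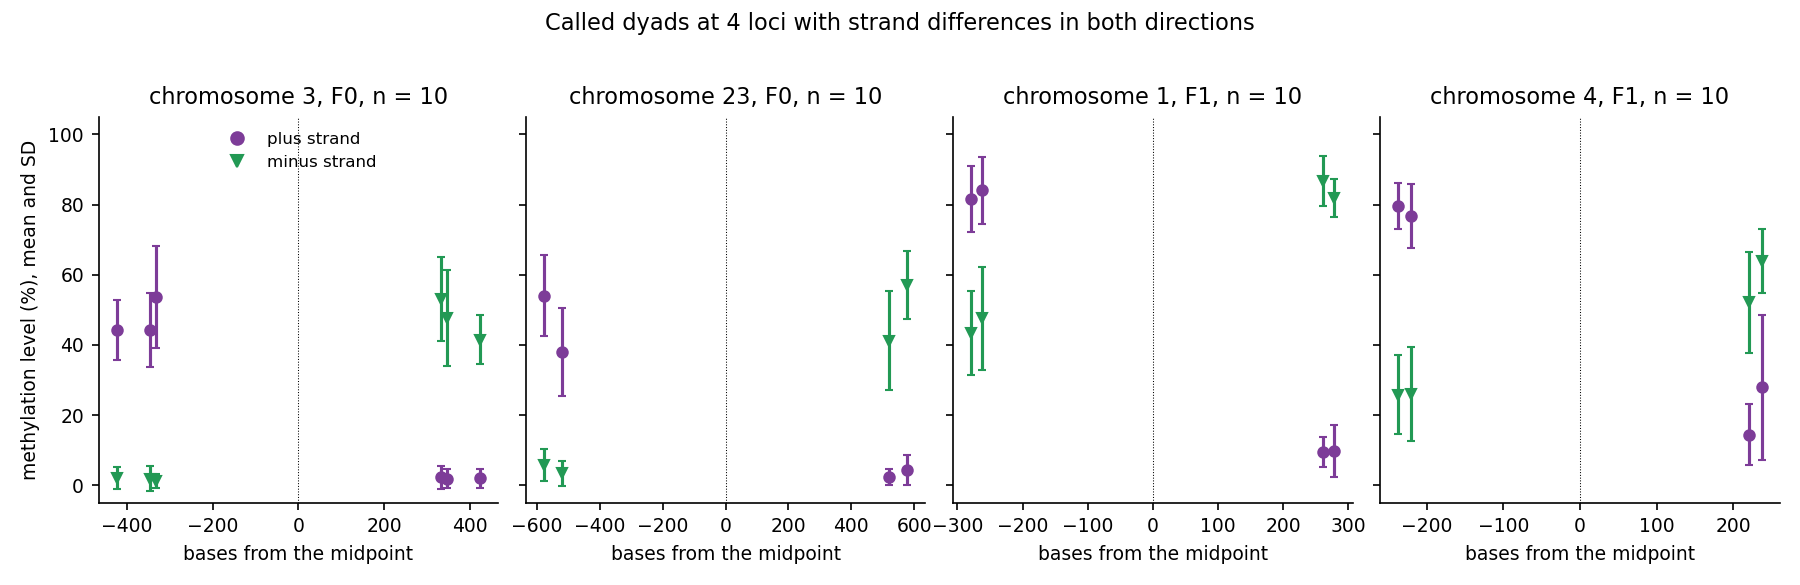
Methylation level (%, mean and SD over 10 samples) of the plus strand (circles) and minus strand (triangles) at called dyads of 4 loci, against the distance in bases from the common midpoint. Left of the midpoint the plus strand is high and the minus strand lower, right of it the reverse, at equal distances, as at 44.3% and 41.5% for the outer pair on chromosome 3.

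CHG cytosines within 500 bases of the called dyads were mostly at or near the low level found elsewhere. The highest values were 11.9% in F0 and 12.2% in F1, on the plus strand at chr4:120998096-120998097, with 3.78% and 4.35% on its minus strand. In F2 they were 14.6% and 5.69% there. At chr14:410857-410858 they were 6.46% and 3.04% on the plus and minus strands in F0. Both of these are the deeply covered blocks with high CG levels, and the part of incomplete bisulfite conversion was not tested.

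A cytosine just before the CG, on its own strand, went with a higher level. A C that precedes the CG makes that C a CHG-type site, so its presence was read from the CHG table, a comparison chosen after the data were seen. No such C was listed on either strand at 58.0% of F0, 58.3% of F1 and 57.0% of F2 dyads, where it may also have missed the coverage minimum. Dyads with such a C on both strands were at 46.4% ± 6.76 in F0 and 47.7% ± 4.83 in F1 (SD, n = 10), and at 48.7% ± 11.6 in F2 (SD, n = 20). Those with none listed were at 31.9% ± 8.21, 34.8% ± 5.23 and 35.9% ± 13.9. Those with 1, on the plus or the minus strand, lay between, at 41.3% and 40.6% in F0, 44.2% and 43.8% in F1, and 45.0% and 44.3% in F2. Every sample showed each of these differences, with adjusted p = 0.0032 in F0 and F1 by exact paired permutation tests and adjusted p = 3.6e-05 in F2 by permutation tests.

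The strand with the preceding C was the slightly lower of the pair in F2. With the C on the plus strand alone, plus minus minus level was -0.713 ± 0.373 points over 1442 dyads (SD, n = 20), below 0 in 19 of 20 rams. With the C on the minus strand alone, it was 0.840 ± 0.405 points over 1237 dyads (SD, n = 20), above 0 in 19 of 20 rams. Both had adjusted p = 3.6e-05 by permutation tests. In F0 and F1 the same differences did not pass, with adjusted p between 0.103 and 0.668 in exact permutation tests. Whether F2 differed from F0 and F1 in this was not tested.

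The diet of the F0 sire was compared within each generation on 7 measures per sample. Mean dyad level was 38.0% ± 9.72 in the F0 methionine group and 34.2% ± 6.15 in the control group (SD, n = 5). This difference of 3.72 points was within the spread of the rams (exact permutation p = 0.508, adjusted 1). The F0 tests take the rams as unpaired, since the labels do not name the twins. Differences between twin pairs are therefore part of that spread. In F1 the difference was 1.56 points (39.6% ± 6.85 and 38.1% ± 2.83, SD, n = 5, exact permutation p = 0.722, adjusted 1). In F2 it was -0.183 points (39.8% ± 13.05 and 40.01% ± 14.2, SD, n = 10, permutation p = 0.971, adjusted 1). An exact test of 5 against 5 can reach 0.00794 at best.

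None of the other measures differed beyond the spread between samples either. The smallest unadjusted p of the 21 tests was 0.151, for the root mean squared strand difference beyond counting in F1, with 7.70 ± 0.971 points in the methionine and 6.78 ± 0.797 in the control pools (SD, n = 5, exact permutation, adjusted 1). Hemimethylated dyads made up 0.111% ± 0.0569 and 0.104% ± 0.0424 in F0 and 0.215% ± 0.0668 and 0.229% ± 0.0466 in F1 (SD, n = 5).

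Single dyads were compared by the test on summed reads that the study's tool uses, which needed 20 points or more and an adjusted p of 0.01 or less, on reads of both strands together. It called 1 dyad in F0 (0.0347% of 2886), 1 in F1 (0.0347% of 2881) and 0 in F2 (0% of 7314). Limma on the level of each sample called 0 in each generation (0%), with 20, 46 and 2 dyads at an unadjusted p under 0.05. The F0 call was NW_020997872.1:584-585, where the methionine group was at 52.8% ± 16.9 and the control group at 32.9% ± 10.5 (SD, n = 5). Its rams ran from 38.7% to 80.6% and from 17.3% to 45.9%, so the groups overlapped, and limma gave an adjusted p of 0.962. The F1 call was chr6:6627677-6627678, at 55.4% ± 32.3 and 71.5% ± 20.6 (SD, n = 5), with ranges of 4.88% to 83.8% and 45.1% to 95%, which also overlapped (limma adjusted p = 0.999). These counts rested on single samples. The F0 count was 0 without ram 5T or 12C, 2 without 11T, 3 without 4C or 24C and 4 without 9T. The F1 count was 0 without pool 9T, 10C or 24C and 2 without 12C. The F2 count was 4 without ramF2_320.5T, 2 without ramF2_449.4C and 1 without ramF2_500.3T.

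Few cytosines of dyads were called for diet. With the same test on each listed CG cytosine, 3 of 5772 dyad cytosines passed in F0 (0.052%), 2 of 5762 in F1 (0.0347%) and 4 of 14628 in F2 (0.0273%). Of all listed CG cytosines 1.82%, 1% and 2.19% passed, and of those on 1 strand 1.86%, 1.02% and 2.48%. All listed CG cytosines passed with the methionine group higher at 0.77%, 0.458% and 1.1% and lower at 1.05%, 0.542% and 1.09%. This test takes reads as independent, and dyads differ from the rest in coverage and level, so the shares are given as counts without a test of their difference. The count of dyad cytosines rested on single samples. In F0 it was 29 without ram 9T, 23 without 24C, 16 without 11T, 11 without 4C and 1 without 23T or 12C. In F1 it was 4 without pool 9T and 1 without 6C. In F2 it was 10 without ramF2_320.5T, with both strands called at 4 dyads, 2 without ramF2_329.23T or ramF2_409.24C, and 1 without ramF2_382.9T or ramF2_323.23T. A dyad with both strands called also appeared without ram 4C in F0, without pool 23T in F1 and without ramF2_449.4C in F2.

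With all samples, no dyad had both strands called. The 9 called cytosines were at 9 dyads, and at 7 of them the partner's difference had the same sign and was smaller. At NW_020997397.1:1821-1822 in F0 the minus strand was at 43.8% ± 9.79 in the methionine and 22.8% ± 14.7 in the control group (SD, n = 5), whereas the plus strand was at 31.9% ± 9.77 and 31.9% ± 11.7. On the minus strand the rams ran from 35.5% to 57.9% and from 8.33% to 46.2%, and so they overlapped. At chr12:13696796-13696797 in F1 the plus strand was at 9.11% ± 7.13 and 29.2% ± 10.9 and the minus strand at 35.1% ± 7.57 and 35.7% ± 12.6 (SD, n = 5). The minus strands of 3 dyads called in F2 lay at NW_020996467.1:19250-19344, where ram means of the minus strand were alike in both lines, at 22.9% ± 27.3 and 23.5% ± 30.8 for the first (SD, n = 10), while the summed reads differed by -21.4 points. The test on summed reads weights a ram by its coverage. Levels ran from 0% to 75.4% and from 0% to 80.4%.

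Groups that did not overlap were found at 0 dyads in F0, 7 in F1 (0.243%) and 0 in F2. Among all listed CG cytosines the shares were 0.575%, 0.67% and 0.000817%. The median diet difference over dyads, methionine minus control, was 3.58 points for F0, 1.29 for F1 and -1.17 for F2, compared with -1.06, -0.767 and 0.0808 over all listed CG cytosines, and it followed the sample means given above. Limma called a diet difference of the strand difference at 0 dyads (0%) in each generation, with 121, 153 and 355 dyads at an unadjusted p under 0.05 and the smallest adjusted p at 0.623, 0.311 and 0.957.

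Generations were compared over the 2207 dyads listed in all of them. Mean level was 36.1% ± 8.35 in F0, 37.9% ± 5.26 in F1 (SD, n = 10) and 39.5% ± 13.9 in F2 (SD, n = 20). Neither F1 (1.87 points, permutation p = 0.561, adjusted 1) nor F2 (3.45 points, permutation p = 0.482, adjusted 1) differed from F0 beyond the spread of the samples. These tests take samples as unpaired, although F0 rams and F1 pools of a number had related levels. With the sire number as a block, mean level had exact permutation p = 0.166 in F1 and p = 0.395 in F2. Unmethylated dyads made up 14.9% ± 10.9, 8.47% ± 5.74 and 17.3% ± 11.4. The F1 difference of -6.46 points had permutation p = 0.117 (adjusted 0.431). With the sire number as a block it had exact permutation p = 0.0234, with F1 higher for 3 of 10 sires, and was not called after adjustment. Methylated dyads made up 0.480% ± 0.442, 0.453% ± 0.429 and 2.02% ± 1.86, and the F2 rams exceeded the F0 rams by 1.54 points with permutation p = 0.0122, which did not hold after adjustment over the 14 tests (adjusted p = 0.171). With the sire number as a block the same excess was called, with an exact permutation p = 0.00195 and adjusted p = 0.0273, and it was positive for 10 of 10 sires. The test without the block takes the F2 rams of a sire as separate samples. Sequencing depth differs between generations, and the share of methylated dyads was not corrected for counting error.

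On these common dyads no change in strand agreement was detected. The root mean squared strand difference beyond counting was 3.73 ± 1.39 points in F0, 3.62 ± 1.20 in F1 (SD, n = 10) and 3.52 ± 1.32 in F2 (SD, n = 20), with permutation p = 0.854 and p = 0.689 against F0 (adjusted 1 for both). No common dyad was hemimethylated in any F0 or F1 sample, and its mean share in F2 was 0.00227% ± 0.0101 (SD, n = 20). The hemimethylated dyads of F0 and F1 therefore all lay outside the 2207 common dyads.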

How the data were processed

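Semen DNA of 10 rams in F0, 10 pools in F1 and 20 rams in F2 was measured by whole-genome bisulfite sequencing. The authors trimmed reads with Trim Galore, aligned them to Oar_rambouillet_v1.0 with Bismark and Bowtie2, removed duplicates and deposited counts of methylated reads and coverage per cytosine with methylKit. In the deposited tables coverage was 10 or more at all cytosines in all samples of a generation, so a dyad could be found only where both strands passed. The authors' RNA counts of F2, made with Trimmomatic and STAR, were used for the marker lists alone, as CPM. Another 80 columns, of unmethylated reads, and the CHH tables were not used.

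Dyads were built from positions, and the level of a strand was its methylated count over its coverage. Classes used limits of 80% and 20%. The number of reads limits the precision of a level, and the SD over samples includes this counting error. Samples were compared with permutation tests, exact where 5 stood against 5 or 10 were paired, otherwise with 100000 resamples. Strand differences and diet differences of levels were fitted with limma 3.58.1 in R 4.3.3 over all dyads. The test on summed reads was a likelihood-ratio test of a logistic regression, called from 20 points with adjusted p up to 0.01, as in the study, and limma was run beside it because the read test ignores the spread between samples. Adjustment was by Benjamini-Hochberg. Values were computed in Python 3.11.15 with NumPy 2.4.6, SciPy 1.17.1 and pandas 2.3.3, and the tests were tested on simulated data. Named dyads were those called for a strand difference in all 3 generations (at most 3 per direction), and in each generation the dyads with the largest and the smallest called difference. Parts of the rule on dyads with both strands called for diet named none. The other dyads given by position were chosen after their values were seen. The members and lists were chosen with earlier results of these data known. Alternatives were a coverage of at least 20, other sizes and class limits, autosomes only, dyads of all 3 generations only, levels on the arcsine scale, and each sample left out in turn. No genome of this build was used, so no sequences or gene positions are given.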

Additional observations from a re-analysis of the deposited data

Results flagged for a closer look

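Over the 3 generations, 42 groups of values were examined for a single sample far from the rest, and 2 had one, where chance gives about 1 in 20 groups. Both were ram ramF2_480.3T in the methionine line. Its share of dyads methylated on both strands was 6.70%, and the nearest ram of the line had 2.87%. Its share of hemimethylated dyads was 0.0547%, which is 4 dyads, and the nearest had 0.0137%, which is 1. Its mean dyad level of 65.9% was the highest of its line, and its summed coverage of dyad cytosines, 1138957, was the lowest of the 20 rams. The part of level and depth in these values was not tested.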

How the results depend on the processing

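Of 1221 values computed under alternatives, 1066 were taken as unchanged. For this a difference had to keep its direction and its side of the threshold, and a count of calls had to stay near its main value. Another 71 changed sign, none of them called. The cause was not tested in any case unless given. With a coverage of at least 20 reads, which leaves fewer dyads, strand calls were 4, 7 and 15 in F0, F1 and F2. With a size of 10 points they were 54, 88 and 172, and with 30 points 12 in F2. Diet calls of dyads were 0 in F0 and in F1 with that coverage, with 25 points and with limma. Dyad cytosines called were 0, 1 and 0 with 25 points, 0 in each generation with limma, and 2 in F2 without the 4 rams over 50%, a choice made after the data were seen. Without these rams the F2 difference at NW_020998535.1:17905-17906 was -15.5 points and was not called. On scaffolds alone the F2 gap between dyads and other cytosines was -0.228 points.

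No diet difference that changed sign was called. With a coverage of at least 20 they were 0.114 (F0, plus minus minus), 0.0696 (F1, methylated share), -0.159 (F2, plus minus minus, permutation p = 0.0311, adjusted 0.654) and -0.0666 (F2, root mean squared strand difference), and F1 against F0 had 0.0931 for the methylated share. On autosomes they were 0.716 (F1, plus minus minus), 0.352, -0.253, -0.00242 and -0.371 (F2, methylated share, other share, plus minus minus and root mean squared difference). Over dyads of all 3 generations the last was -0.0767. With limits of 90% and 10% they were -0.0139 and -0.00693 (F0, methylated and hemimethylated), 0.139 and -0.0902 (F1, unmethylated and other) and 0.0301 (F2, methylated). With 70% and 30% the F1 hemimethylated difference was 0.139.

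Leaving out each sample in turn, diet differences ran in F0 from -0.250 to 6.25 points (mean level), -0.0658 to 0.180 (methylated) and -0.00866 to 0.0260 (hemimethylated). In F1 they ran from -1.18 to 3.30, -0.179 to 0.0798, -3.31 to 0.828 (unmethylated), -0.0295 to 0.0139 (hemimethylated) and -0.833 to 3.51 (other). In F2 they ran from -3.08 to 2.83, -1.17 to 0.172, -2.04 to 1.28, -0.00106 to 0.00517, -0.666 to 2.47, -0.0129 to 0.0741 (plus minus minus) and -0.202 to 0.337 (root mean squared difference). The lowest adjusted p was 0.833. Dyads called for diet ran from 0 to 4, 0 to 2 and 0 to 4, dyad cytosines from 1 to 29, 1 to 4 and 1 to 10, and dyads with both strands called from 0 to 1, 0 to 1 and 0 to 4. Strand calls ran from 24 to 27, 43 to 46 and 36 to 41.

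Sire numbers are shared between generations. Deviations of same-numbered samples correlated over 0.1 in 6 of 10 pairs for F1 with F0 and in 5 of 10 for F2 with F0, so not every pair did. The number marks descent from an F0 ram and not the same animal, and the tests were kept without the block. With the replicate block of the sire number, the F2 excess of the methylated share over F0 stayed at 1.54 points with an exact permutation p of 0.00195 and an adjusted p of 0.0273, and the block changed no other call. The methylated share was not corrected for sequencing depth, which differs between generations. In F1 4 and in F2 5 of 10 numbers correlated best with themselves.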
